A study of Homo sapiens with 208 samples.

Results

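Gene expression was compared between untreated PC9M2 and untreated PC9 cells. PC9, derived from a human lung adenocarcinoma, carries an activating deletion in the kinase domain of the epidermal growth factor receptor (EGFR) and is sensitive to gefitinib, an inhibitor of that kinase. PC9M2, named PC9GRM2 in the sample labels, is 1 gefitinib-resistant clone that was selected from PC9 by prolonged exposure to the drug. It was chosen among clones without MET amplification and without the known secondary resistance mutation of EGFR, and its doubling time was close to that of PC9. The series holds 8 time courses of 26 arrays, and the 2 used here are those that the labels mark as having no treatment, which makes 52 arrays, 26 for each line. Both lines were starved for 48 h, received neither gefitinib nor EGF, and were harvested at 0, 0.5 and 1 h and then hourly to 24 h, with 1 array per line and time point. The other arrays of the series hold EGF, gefitinib or both, and those with EGF alone are used below for a second comparison of the same lines.

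The comparison rested on 1 clone and its parent, so that what distinguishes resistant cells in general cannot be told apart from what distinguishes this clone. No time point had a second array, and the 26 differences between PC9M2 and PC9 at matched time points stood in for replicates. The p-values therefore measured the spread between time points of 1 course, which were not independent (the autocorrelation between neighbouring time points was 0.37). Each line was also hybridised on slides of its own and scanned in a period of its own. The 26 slides of PC9 were scanned on 8 days and the 26 slides of PC9M2 on 9 others, with 0 slides and 0 days in common, so that the line and the scan period cannot be told apart. The PC9 scans had a lower ceiling, and 521 to 1702 features per PC9 array were saturated against 0 on every PC9M2 array. Of 43376 features that are not controls, the number marked as well above background ran from 24464 to 34909 on the PC9 arrays and from 26902 to 33444 on the PC9M2 arrays. The lowest median correlation of an array with the others of its line was 0.96 in PC9 (at 23 h) and 0.93 in PC9M2 (at 11 h), and leaving out the 11 h pair moved no count of genes by over 1.5 times.

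EGFR-mutant lung adenocarcinoma cells depend on signals that the mutant receptor sends through the ERK and PI3K-AKT pathways to support growth and to hold back cell death. Cells that survive a kinase inhibitor can do so through other receptor kinases such as MET or AXL, through a shift between epithelial and mesenchymal states, or through other pathways, of which the study examined Wnt/β-catenin signaling. In that pathway, GSK3 and AXIN proteins mark β-catenin for degradation, and β-catenin that escapes acts with LEF1 and other TCF family proteins on transcription.

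The values are log2 intensities of 1 probe per gene, after quantile normalization of all arrays together. That probe was the most variable one over all arrays of both lines, a rule that favours probes on which the lines differ. A level is thus a property of that probe, and a difference is always the mean of PC9M2 minus PC9 over the time points. A value that follows the word higher or lower is that difference with its standard error. Markers of lung adenocarcinoma epithelium were present as the labels imply. Of 10 such markers with a probe, 9 (EPCAM, KRT7, KRT8, KRT18, KRT19, CDH1, MUC1, CLDN4 and NAPSA) were well above background on all 52 arrays, whereas NKX2-1, a lineage factor of lung adenocarcinoma, was so on 2 PC9 arrays and 1 PC9M2 array. The log2 of their summed intensity ran from 17.9 to 18.6 in PC9 and from 18.1 to 18.6 in PC9M2. The brightest of them in both lines, KRT18 and KRT19, were saturated on all 26 PC9 arrays, so that these sums do not compare the lines on equal terms. Of 26 markers of fibroblasts, leukocytes, endothelial and erythroid cells, 5 (PTPRC, CD3D, LUM, PDGFRB and TEK) were above background on 0 arrays of either line and 5 (THY1, CD79A, CD14, CD68 and PECAM1) on all 52. Their summed level ran from 11.2 to 12.3 in PC9 and from 10.8 to 13.6 in PC9M2.

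The lines differed broadly, with somewhat more genes lower than higher in the resistant line. Of 13261 tested genes, 4022 (30.3%) were higher in PC9M2 and 5014 (37.8%) were lower at an adjusted p under 0.05 (limma's moderated test on the paired differences, two-sided, Benjamini-Hochberg adjustment over all tested genes). At least 2-fold differences were found for 953 higher genes (7.19%) and 1276 lower genes (9.62%), and at least 8-fold differences for 46 and 43. Most differences were small. The median over all tested genes was -0.064 and the median absolute difference was 0.45, and 54% of the genes differed by less than 0.5. The same sign at every measured time point was seen for 980 of the higher and 911 of the lower genes. For 335 higher genes (2.53%) and 277 lower genes (2.09%) the highest array of one line lay below the lowest of the other, which is meant below where ranges are said not to overlap. All lists of genes below are read against these background shares.

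**Figure D1:**
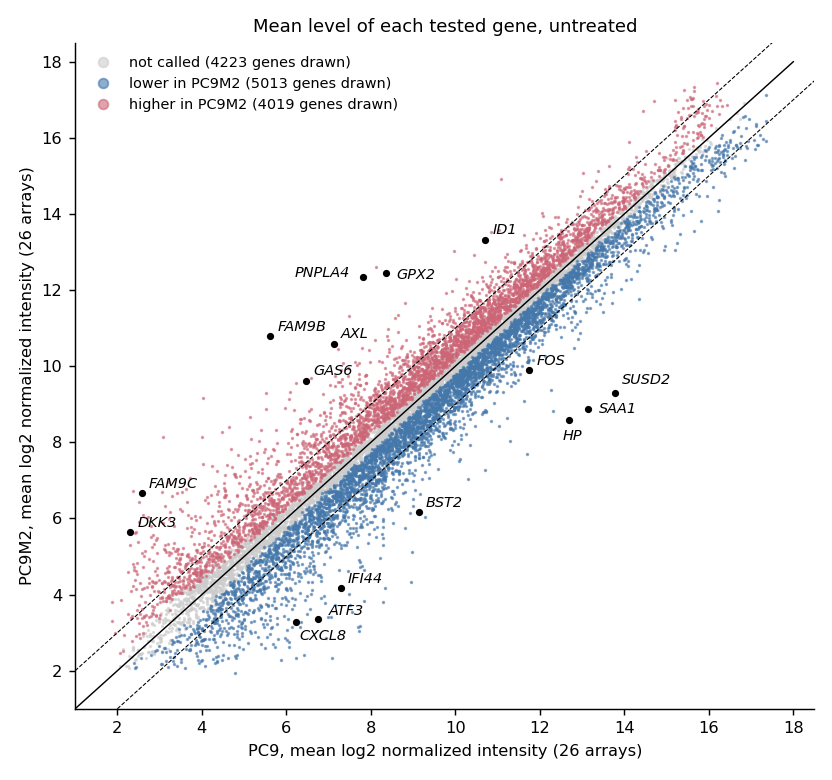
Mean log2 intensity of each tested gene in untreated PC9 (x axis) and untreated PC9M2 (y axis), over 26 arrays each. Genes called higher or lower at an adjusted p under 0.05 are in colour, whatever the size of their difference, and dashed lines mark a 2-fold difference. The coloured genes lie on both sides of the diagonal over the whole range of intensities.

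Among the genes with the same sign throughout and signal in both lines, the largest differences in favour of PC9M2 included X-linked genes, the receptor kinase AXL and the glutathione peroxidase GPX2. AXL, a receptor tyrosine kinase of the TAM family encoded on chromosome 19, had a lowest, median and highest log2 intensity of 6.81, 7.10 and 7.63 in PC9 and of 9.58, 10.61 and 11.39 in PC9M2. The PC9M2 arrays were thus all above the PC9 arrays, by a mean of 3.46 ± 0.12 (SE, n = 26 time points), or 11-fold (adjusted p = 1.31e-20). GPX2, which reduces hydroperoxides with glutathione, had values of 7.45, 8.48 and 9.07 in PC9 and of 11.74, 12.45 and 12.84 in PC9M2. These ranges were far apart, with a difference of 4.09 ± 0.10 (adjusted p = 2.7e-24). CALB1, a calcium-binding protein, gave 7.39, 8.13 and 8.74 in PC9 and 12.18, 12.60 and 13.96 in PC9M2, again without overlap, and a difference of 4.50 ± 0.11 (adjusted p = 5.29e-24). SMO, the signal-transducing membrane protein of the Hedgehog pathway, ran at 4.57, 5.51 and 6.79 in PC9 and at 8.01, 8.95 and 9.87 in PC9M2, with a difference of 3.35 ± 0.084 (adjusted p = 5.63e-24).

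The other autosomal genes of this rank were SLCO1B3, MELTF and KLF12. SLCO1B3, an organic anion uptake transporter, was higher by 3.76 ± 0.14 and was above background on 22 of 26 PC9 arrays. MELTF, an iron-binding membrane protein of the transferrin family, was higher by 3.76 ± 0.13 on the probe used and by 2.83 on the other. KLF12, a transcriptional repressor of the Krüppel-like family, was higher by 3.53 ± 0.15. MPP1, a membrane-associated guanylate kinase encoded on the X chromosome, was higher by 4.13 ± 0.14 but was above background on only 13 of 26 PC9 arrays. Ranges of the lines did not overlap for any of these 4 genes. One tested gene, SGCB (a sarcoglycan of the muscle membrane complex), was well above background on all 26 arrays of PC9M2 and on 0 of PC9, which gave it an at least 10.5-fold higher level in PC9M2. That bound is on a dim probe with a median of 5.95 in PC9M2, and under the normexp background correction its difference was 0.33. Normexp was run here and below with an added offset of 50, which by construction draws the differences of dim probes toward 0. The reverse pattern, with signal on all 26 arrays of PC9 and on 0 of PC9M2, was found for 0 genes.

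**Figure D2:**
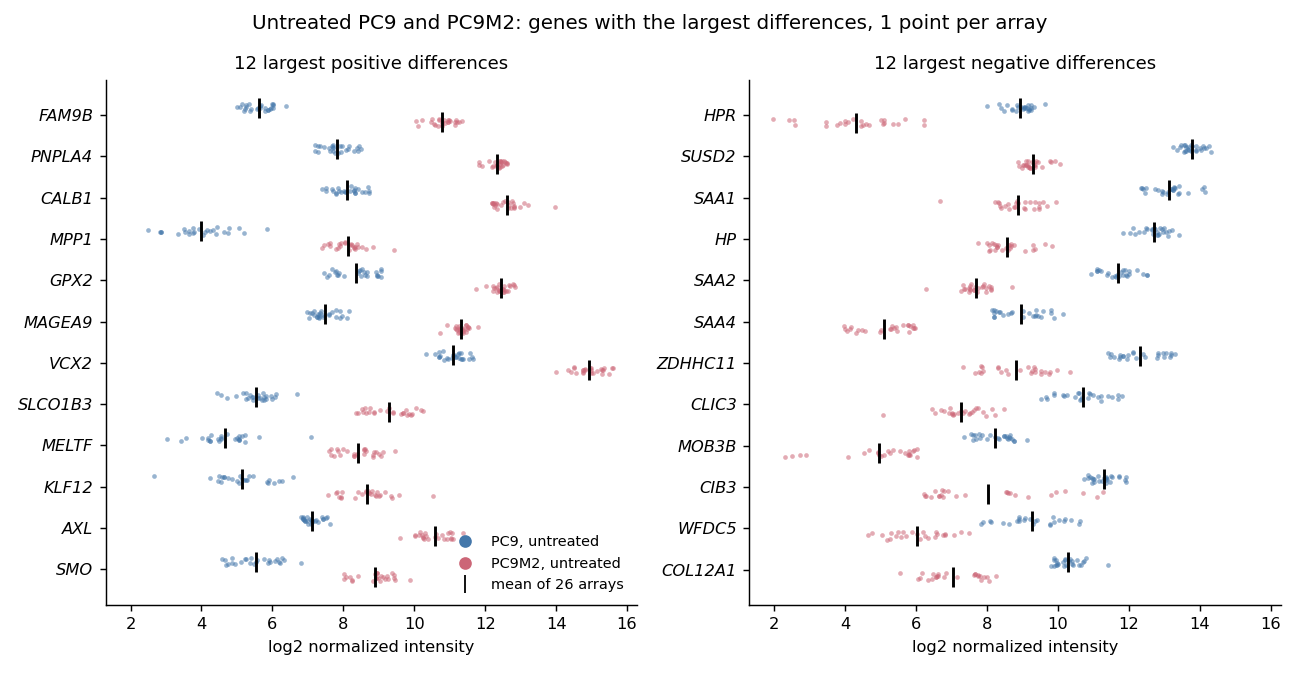
Log2 intensity of the 12 genes with the largest positive and the 12 with the largest negative difference, by the rule of the same sign at every time point and signal in both lines. Each point is 1 array (26 per line), and of these genes CIB3 alone has ranges that overlap.

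Of the 12 genes with the largest positive differences, 5 lie on the X chromosome. FAM9B, a testis-expressed gene, gave 5.00, 5.66 and 6.38 in PC9 and 10.05, 10.81 and 11.33 in PC9M2. It had the largest difference of this rank, 5.18 ± 0.094 (adjusted p = 1.1e-26), which was 2.90 under another background correction (normexp), and 24 of 26 PC9 arrays were above background. PNPLA4, a lipase of the patatin-like family, gave 7.20, 7.74 and 8.50 in PC9 and 11.82, 12.40 and 12.63 in PC9M2. Its difference was 4.52 ± 0.10 on the probe used and 2.89 on the other. These genes are neighbours of the VCX family, male germ cell genes, and in gene order the tested genes from VCX3A to FAM9B are VCX3A, PUDP, STS, VCX, PNPLA4, VCX2 and FAM9B. VCX3A, VCX and VCX2 were higher by 2.26 ± 0.062, 2.27 ± 0.065 and 3.84 ± 0.11. The first 2 stood at 3.25 and 3.21 under scaling to the 75th percentile, and the other probe of VCX2 gave 2.24. PUDP, a pseudouridine phosphatase, was higher by 0.29 ± 0.093, a call that was lost with scan day as a random block (adjusted p = 0.0727) and with time points 3 h apart (adjusted p = 0.131). STS, the steroid sulfatase gene between them, was lower by contrast (-1.06 ± 0.17 (adjusted p = 2.65e-06)), so that 6 of the 7 genes were higher, or 5 without the call of PUDP, and 1 was lower. This stretch was drawn around genes picked for their large differences, namely PNPLA4, VCX2 and FAM9B, so its counts follow in part from that choice. The VCX genes are near-identical copies, and which of them their probes measured is uncertain.

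Cancer-testis genes are expressed in germ cells and in many tumours, and the tested members differed among themselves. Of 20 tested, 12 were higher and 2 were lower, against background shares of 30.3% and 37.8%, with a median difference of 0.60. The median was 0.057 under normexp. MAGEA9 gave 6.97, 7.36 and 8.16 in PC9 and 10.73, 11.33 and 11.80 in PC9M2, a difference of 3.85 ± 0.078 between ranges that did not overlap. MAGEA8 was higher by 2.03 ± 0.18, with 14 of 26 PC9 arrays above background. MAGEA1 (-0.82) and MAGEA4 (-0.51) were lower, and MAGEA6 (-0.16) and MAGEA12 (0.10) were not called. FAM9C, a gene near FAM9B, was above background on 1 PC9 array and all 26 PC9M2 arrays and gave a difference of 4.08 ± 0.14 on the probe used. Its other probe gave -0.13.

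The largest differences in the other direction were led by secreted acute-phase proteins, which liver and epithelial cells make in inflammation. SAA1, serum amyloid A1, gave 12.36, 13.21 and 14.14 in PC9 and 6.69, 8.86 and 9.94 in PC9M2. All PC9M2 arrays lay under all PC9 arrays, and the difference was -4.26 ± 0.13 (adjusted p = 8.41e-22), or 19.2-fold. Its neighbours of the serum amyloid family on chromosome 11, SAA2 and SAA4, were lower, at -4.02 ± 0.11 and -3.86 ± 0.10. HP, haptoglobin, which binds free hemoglobin, gave 11.84, 12.77 and 13.40 in PC9 and 7.76, 8.48 and 9.82 in PC9M2, a difference of -4.12 ± 0.10 (adjusted p = 4.42e-24). The related gene beside it, HPR, showed -4.62 ± 0.23, with 13 of 26 PC9M2 arrays above background. SAA1 with SAA2, and HP with HPR, are near-identical copies whose probes may share transcripts, so that these 5 values are not independent.

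SUSD2, a sushi domain membrane protein, gave 13.24, 13.72 and 14.31 in PC9 and 8.88, 9.21 and 10.05 in PC9M2. It stood at -4.47 ± 0.085 (adjusted p = 1.87e-26), without overlap. The same was seen for CLIC3, an intracellular chloride channel protein (-3.43 ± 0.19), ZDHHC11, a palmitoyltransferase (-3.49 ± 0.10), and WFDC5, a putative protease inhibitor (-3.25 ± 0.12). COL12A1, a fibril-associated collagen, was lower, at -3.25 ± 0.17 on the probe used and at -1.89 on the other. MOB3B, a kinase activator protein, was lower, at -3.28 ± 0.19 on one probe and at -0.999 on the other. CIB3, a calcium- and integrin-binding protein, was lower, at -3.26 ± 0.26 over the course as a whole, but its difference narrowed with time as described below.

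Interferon-stimulated genes encode antiviral effectors and sensors and are driven by transcription factors such as STAT2 and IRF9 through a promoter element, the interferon-stimulated response element (ISRE). As a group they were lower in PC9M2. Of 37 tested members of a list of 46, 29 were lower (78.4%, against 37.8% of all tested genes) and 3 were higher (IFIT5, IFITM2 and PARP9). The median difference was -0.79 (-0.33 under normexp), against -0.064 over all tested genes, and 16 members were at least 2-fold lower. The 250 bases before the transcription start of the 4 members with the largest differences are printed, since they carry the core of the element. The core was searched as GAAA, any 2 bases and GAAA again, on both strands, and the matches are in capitals. The sequences are 5′ to 3′ on the strand of the gene, from RefSeq (GRCh38.p14), at chr1:78649539-78649788 (plus strand), chr19:17405631-17405880 (minus strand), chr4:88456869-88457118 (plus strand) and chr1:78620198-78620447 (plus strand).
IFI44: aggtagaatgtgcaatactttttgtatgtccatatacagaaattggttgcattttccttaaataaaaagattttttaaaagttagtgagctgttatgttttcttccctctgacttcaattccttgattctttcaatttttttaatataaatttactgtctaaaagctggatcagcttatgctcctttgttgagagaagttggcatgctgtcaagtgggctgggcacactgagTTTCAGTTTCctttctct
BST2: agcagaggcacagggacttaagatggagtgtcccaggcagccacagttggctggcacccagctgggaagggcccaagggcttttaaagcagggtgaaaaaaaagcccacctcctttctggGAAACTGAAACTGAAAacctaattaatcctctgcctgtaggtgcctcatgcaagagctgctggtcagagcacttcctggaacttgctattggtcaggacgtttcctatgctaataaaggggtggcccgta
HERC5: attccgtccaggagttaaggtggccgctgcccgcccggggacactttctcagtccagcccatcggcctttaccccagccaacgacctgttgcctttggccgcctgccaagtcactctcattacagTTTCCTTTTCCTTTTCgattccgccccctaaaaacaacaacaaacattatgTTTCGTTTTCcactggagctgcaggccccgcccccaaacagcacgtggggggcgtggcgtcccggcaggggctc
IFI44L: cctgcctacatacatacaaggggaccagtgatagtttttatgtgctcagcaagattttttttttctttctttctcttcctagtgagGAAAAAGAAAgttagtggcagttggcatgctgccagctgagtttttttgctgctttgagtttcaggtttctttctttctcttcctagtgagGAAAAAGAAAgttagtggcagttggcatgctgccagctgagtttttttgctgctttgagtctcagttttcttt

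Each of these promoter windows held the core 1 to 3 times. Over all genes with a promoter in the table, 839 of 27305 (3.07%) held it, and of tested genes 260 of 10688 (2.43%). Among the interferon-stimulated genes tested, 30 had a promoter there and 19 of them (63.3%) held the core. It was found in 15 of the 23 that were lower in PC9M2 and in 4 of the 7 that were not. A match is a description of the letters in this window and not a measured binding site.

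IFI44, an interferon-induced cytoplasmic protein, gave 6.42, 7.42 and 7.85 in PC9 and 2.35, 4.44 and 5.41 in PC9M2. The ranges did not overlap and the difference was -3.11 ± 0.17 (adjusted p = 1.35e-15), with 11 of 26 PC9M2 arrays above background. BST2, tetherin, which holds budding virus at the membrane, gave 8.68, 9.01 and 9.83 in PC9 and 5.36, 6.05 and 7.09 in PC9M2. Its probe was marked as above background on all arrays, and its mean difference was -2.96 ± 0.11 (adjusted p = 1.88e-19). HERC5, the ligase that attaches ISG15 to proteins, was lower, at -2.33 ± 0.15, and IFI44L, a close relative of IFI44, was also lower (adjusted p = 6.26e-10), with 4 and 1 of 26 PC9M2 arrays above background. OAS3, an oligoadenylate synthetase that senses double-stranded RNA, was lower, at -1.90 ± 0.13. IFI6, a mitochondrial survival protein, was lower, at -1.83 ± 0.12, and IRF1, a transcription factor of this response, at -1.80 ± 0.087. Those 3 genes, with IFI44 and BST2, made up the 5 members whose ranges did not overlap. The factors STAT2 and IRF9 differed less. They were lower, at -0.79 ± 0.14 and -0.45 ± 0.15. In bulk RNA, fewer cells with a transcript and less transcript per cell cannot be told apart, here or below.

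Genes that present antigen and checkpoint ligands were lower in a share near the background. Of 30 tested, 5 (16.7%) were higher and 13 (43.3%) lower, against 30.3% and 37.8% of all tested genes. The median was -0.15, and with scan day as a random block 1 was higher and 10 lower. The immunoproteasome subunits PSMB10 and PSMB9 were lower, at -1.37 ± 0.16 and -1.05 ± 0.12, and ERAP2, a peptidase that trims antigenic peptides, at -1.26 ± 0.16 (-0.47 on another probe). B2M, the partner of the class I chains, was not called (0.11). The ligands of the checkpoint receptor PD-1, CD274 and PDCD1LG2, were lower, at -0.69 ± 0.11 and -1.24 ± 0.15, the latter above background on 3 of 26 PC9M2 arrays. CD47, the ligand that holds back phagocytes, was higher by 1.12 ± 0.20 on the probe used and stood at -0.12 on another.

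Cytokines and chemokines were mostly lower, with some exceptions. Of 18 tested, 13 were lower (72.2%) and 3 were higher, with a median of -0.92 (-0.25 under normexp). CXCL8, the neutrophil chemokine interleukin 8, gave 3.83, 6.32 and 8.87 in PC9 and 1.93, 2.48 and 5.98 in PC9M2. These ranges overlapped, and the difference was -2.96 ± 0.16 (adjusted p = 3.84e-16), with 7 of 26 PC9M2 arrays above background. IL23A, a subunit of interleukin 23, was well above background throughout and gave 10.87, 13.09 and 14.13 in PC9 and 9.55, 11.10 and 12.91 in PC9M2, a difference of -1.82 ± 0.13. OSM, a cytokine of the interleukin 6 family, was lower, at -2.23 ± 0.13, CXCL1 at -1.72 ± 0.12 and IL6 at -1.11 ± 0.075. TNF was lower, at -1.92 ± 0.15 on the probe used, above background on 10 PC9M2 arrays, and stood at 0.44 on another. The higher members were CSF2, the growth factor GM-CSF (1.73 ± 0.15), TNFSF15 (1.59 ± 0.27, 5 of 26 PC9 arrays above background) and IL1B, interleukin 1β (0.98 ± 0.20).

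ERBB receptors and their ligands showed unequal differences. Of 20 tested genes of the family and its regulators, 3 were higher and 13 (65%) lower, and the median was -0.72 (-0.31 under normexp). EGFR itself gave 11.43, 11.81 and 12.33 in PC9 and 10.18, 11.03 and 11.61 in PC9M2, a difference of -0.83 ± 0.063 (adjusted p = 1.7e-12). ERBB2, the family member without a ligand of its own, gave 10.80, 11.60 and 12.31 in PC9 and 12.11, 13.04 and 13.70 in PC9M2. It was the one receptor of the family that was higher, by 1.48 ± 0.13 (adjusted p = 5.2e-11) on the probe used and by 0.60 on the lowest of its probes. ERBB3, a partner with weak kinase activity, was lower, at -0.67 ± 0.11, and ERBB4 (0.045) was not called. Among the ligands, EGF (-2.11 ± 0.18), HBEGF (-0.92 ± 0.18) and TGFA (-0.73 ± 0.16) were lower and AREG (0.68 ± 0.091) and NRG4 (1.76 ± 0.32) higher, with EGF above background on 19 of 26 PC9M2 arrays and NRG4 on 7 of 26 PC9 arrays. The adaptors that couple these receptors to RAS and PI3K were lower, namely GAB1 at -2.56 ± 0.14, GRB2 at -0.82 ± 0.091, SHC1 at -0.71 ± 0.14 and SOS1 at -0.75 ± 0.14. GAB1 was above background on 6 of 26 PC9M2 arrays, and other probes of GRB2 ran up to 0.30. CBL, the ligase that sends active receptors to degradation, was lower, at -2.27 ± 0.19 on the probe used and at -0.54 on a brighter one, and the feedback inhibitor ERRFI1 was lower, at -1.15 ± 0.14 on the probe used and stood at 0.45 on another.

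Receptor kinases that can stand in for EGFR were described as a second list together with their ligands. Of 25 tested, 10 (40%) were higher and 5 lower, with a median of 0.24. Of the 13 receptors, 3 (23.1%) were higher and 2 lower, and of the 12 ligands, 7 were higher and 3 lower. AXL and both of its ligands were among the higher genes. GAS6, its main ligand, gave 5.65, 6.46 and 7.52 in PC9 and 8.44, 9.70 and 10.30 in PC9M2, without overlap, and a difference of 3.15 ± 0.11 (adjusted p = 5.3e-20). The other ligand, PROS1 (protein S), was higher by 2.17 ± 0.17 and was above background on 4 of 26 PC9 arrays and 15 of 26 PC9M2 arrays, and another probe gave 0.54. TYRO3, a relative of AXL, was not called (-0.041). MET gave 4.63, 6.00 and 7.38 in PC9 and 4.91, 5.55 and 6.69 in PC9M2, and neither MET (-0.25 ± 0.19 (adjusted p = 0.257)) nor its ligand HGF (0.48 ± 0.27 (adjusted p = 0.12)) was called. On its brightest probe MET was called, at 0.51 (adjusted p = 0.000182). The insulin-like growth factor IGF2 was higher by 1.92 ± 0.14 and the receptor IGF1R by 0.51 ± 0.10, though another probe of IGF2 gave -0.036. Of the fibroblast growth factors, FGF13, which acts inside the cell, was higher by 2.82 ± 0.14 and FGF19 by 1.61 ± 0.23, and FGF1 was lower, at -2.97 ± 0.15. FGF13 was above background on 5 of 26 PC9 arrays and FGF1 on 1 of 26 PC9M2 arrays, and another probe of FGF1 gave -0.30. The receptors FGFR1 (0.18), FGFR2 (0.33) and FGFR4 (-0.21) were not called.

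Genes that ERK induces early or that feed back on it were in part lower, and their members did not move alike. Of 29 tested, 5 were higher and 16 (55.2%) lower, with a median of -0.30. FOS, the AP-1 transcription factor, gave 11.25, 11.76 and 12.33 in PC9 and 8.83, 9.92 and 10.42 in PC9M2, without overlap and with a difference of -1.86 ± 0.11 (adjusted p = 7.46e-15). IER3, an early response gene that modulates survival, gave 14.28, 15.16 and 17.03 and 12.87, 13.44 and 14.10 in the same order, a difference of -1.83 ± 0.11, with 2 PC9 arrays saturated. The phosphatase DUSP1 was the other member without overlap (-1.49 ± 0.10). ATF3, a stress-induced transcription factor, was lower, at -3.39 ± 0.25 and was above background on 25 PC9 arrays and 7 PC9M2 arrays. Among genes often read as ERK output, DUSP6 was lower, at -0.22 ± 0.084, and EGR1 (-0.30), SPRY4 (-0.033), ETV5 (-0.086), JUN (-0.18) and MYC (0.34) were not called. Higher members were ETV1 (1.59 ± 0.16), SPRED1 (1.24 ± 0.14), DUSP10 (1.12 ± 0.15), DUSP2 (0.62 ± 0.11) and EGR2 (0.52 ± 0.14).

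Components of the PI3K-AKT pathway were lower and higher in shares near the background. Of 31 tested, 9 were higher and 12 lower (median -0.077), and with scan day as a random block 5 and 10. AKT1, the main AKT kinase in most cells, gave 7.15, 8.22 and 9.40 in PC9 and 7.37, 8.19 and 9.20 in PC9M2, and neither it (0.10 ± 0.14 (adjusted p = 0.569)) nor AKT2 (0.11) was called. PHLPP2, a phosphatase that removes an activating phosphate from AKT, gave 8.73, 9.67 and 10.30 in PC9 and 7.35, 8.19 and 8.42 in PC9M2, lower, at -1.45 ± 0.082 (adjusted p = 2.07e-15) and without overlap. The kinase subunit PIK3CB was lower, at -1.39 ± 0.11, and the regulatory subunit PIK3R3 at -1.57 ± 0.20. The phosphatase INPP5D was higher by 1.33 ± 0.10.

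Regulators of apoptosis differed on both sides of the balance between survival and death. Of 33 tested, 11 were higher and 17 (51.5%) lower, with a median of -0.33. BCL2L11, the BH3-only protein BIM that EGFR inhibitors induce, was lower, at -1.94 ± 0.24 on the probe used, which was above background on 21 PC9 arrays and 5 PC9M2 arrays. Its 4 probes ran from -1.94 to 0.13, and the brightest gave the last value. BCL2, the survival protein that binds it, gave 4.59, 5.60 and 7.08 in PC9 and 6.53, 7.52 and 9.32 in PC9M2, higher by 1.72 ± 0.11 (adjusted p = 4.07e-14). Among other BH3-only genes, BMF (1.45 ± 0.23) and BAD (1.36 ± 0.094) were higher and HRK (-1.40 ± 0.11, -0.051 on another probe) was lower. BBC3 was saturated on 24 of 26 PC9 arrays, and its direction turned under scaling to the 75th percentile (-1.07 and 0.29). BAD gave 10.48, 11.16 and 11.74 in PC9 and 11.88, 12.57 and 13.15 in PC9M2, 1 of 2 members of the list whose higher ranges did not overlap, the other being the survival gene BCL2L2 (0.67 ± 0.064). The death receptors FAS and TNFRSF10A were lower, at -1.24 ± 0.13 and -1.31 ± 0.10, and the inhibitor of apoptosis BIRC3 at -1.30 ± 0.17.

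The Wnt/β-catenin pathway, which the study followed up in these lines, had members in both directions in equal number. Of 66 tested, 22 were higher and 22 lower, and the median was -0.027. Extracellular modulators contributed 7 higher and 4 lower genes of 12, and 5 and 1 with scan day as a random block. SFRP1, a secreted protein that binds Wnt ligands, gave 10.90, 11.58 and 11.90 in PC9 and 11.96, 13.12 and 13.95 in PC9M2, without overlap and with a difference of 1.49 ± 0.069 (adjusted p = 1.66e-17). DKK1, which blocks the Wnt co-receptors, was higher by 1.69 ± 0.087, and its relative DKK3 by 3.33 ± 0.13, with 3 of 26 PC9 arrays above background and 0.63 on another probe. The ligand WNT10A gave 6.98, 7.74 and 8.27 in PC9 and 8.80, 9.27 and 9.72 in PC9M2, higher by 1.55 ± 0.069 (adjusted p = 8.2e-18). Among the Frizzled receptors, FZD5 (0.60 ± 0.13), FZD7 (0.56 ± 0.10) and FZD9 (0.50 ± 0.076) were higher and FZD4 (-1.59 ± 0.084, -0.46 on another probe) was lower. FZD5 was no longer called with the mean of its probes (0.11, adjusted p = 0.282).

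Inside the cell, GSK3B, a kinase of the β-catenin destruction complex, gave 10.53, 11.15 and 11.86 in PC9 and 8.85, 9.94 and 10.45 in PC9M2. The ranges did not overlap, and the gene was lower, at -1.22 ± 0.077 (adjusted p = 2.88e-14). Its paralog GSK3A was higher by 0.71 ± 0.062 and the scaffold AXIN1 by 0.22 ± 0.084, which was lost with scan day as a random block (adjusted p = 0.239). LEF1, the nuclear partner of β-catenin, gave 8.57, 9.43 and 10.14 in PC9 and 10.26, 10.72 and 11.64 in PC9M2, higher by 1.50 ± 0.092 and without overlap on the probe used, and by 0.44 on another. Of 8 target genes of the pathway, 0 were higher and 4 lower (NKD1, NKD2, SP5 and CD44), of which NKD1 was above background on 5 PC9M2 arrays, CD44 was saturated on 16 PC9 arrays and another probe of SP5 gave 0.25. AXIN2, a feedback target, gave 5.81, 6.55 and 7.60 in PC9 and 4.48, 6.67 and 8.23 in PC9M2, and its difference of -0.0089 ± 0.18 (adjusted p = 0.969) was not called, nor was that of CCND1, MYC or RNF43. By quantitative PCR, the study found more AXIN2 RNA in PC9M2 than in PC9, in cells that it describes as at steady state. The cells of the arrays had been starved. NKD2, another feedback inhibitor, was lower, at -1.59 ± 0.37 on the probe used and higher by 2.59 on the other. For the 17 tested genes that the study itself names, 8 were higher and 4 lower, with a median of 0.22. Among them, the study showed FZD5, FZD7, FZD9 and LEF1 as examples from these same arrays, so the count is no independent evidence of a direction. The named genes include the adhesion partners of β-catenin, CDH1 (0.079, not called) and CTNNA1, α-catenin (-0.49 ± 0.11).

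CTNNB1, the gene of β-catenin itself, differed by time. It was higher by 0.95 ± 0.22 (adjusted p = 0.000322) over the whole course on the probe used, and was not called with time points 3 h apart (0.91, adjusted p = 0.0706). From 10 to 15 h the difference ran from 1.59 to 3.34 with a mean of 2.70, whereas from 17 to 24 h it ran from -0.46 to 0.064 with a mean of -0.14. The second probe gave 1.30 over the whole course, 2.40 from 10 to 15 h and 0.83 from 17 to 24 h. The arrays of EGF-treated cells gave 2.86 from 10 to 15 h and 0.51 at the other hours. The 6 PC9M2 slides from 10 to 15 h were scanned on 2 days of their own, so that these hours and their scan days cannot be told apart, and the EGF arrays sit on the same slides. At the same hours the probe used for CEBPA stood at -4.02, against -0.97 at the others, and that of NKD2 at -3.61, against -0.92.

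Markers of the epithelial and the mesenchymal state did not divide by line. Of 14 mesenchymal genes tested, 5 were higher and 5 lower (median -0.062). SNAI2, a repressor of epithelial genes, gave 6.17, 7.41 and 9.11 in PC9 and 8.44, 9.19 and 9.72 in PC9M2, higher by 1.62 ± 0.14 (adjusted p = 1.69e-11). VIM, the mesenchymal intermediate filament vimentin, gave 12.78, 13.54 and 14.55 and 11.32, 12.44 and 13.20 in the same order and was lower, at -1.30 ± 0.083 (adjusted p = 4.01e-14). TAGLN, an actin-binding protein, was also lower (-1.59 ± 0.11), COL6A1 was higher (1.19 ± 0.16) and SNAI1 was not called (-0.062). Of 33 epithelial adhesion genes, 8 were higher and 15 (45.5%) lower, with a median of -0.20 that changed sign to 0.039 under scaling to the 75th percentile. With scan day as a random block, 9 were lower. The adherens junction gene CDH1, E-cadherin, gave 13.57, 14.13 and 14.65 in PC9 and 13.47, 14.13 and 15.00 in PC9M2, and neither it nor EPCAM (-0.24) was called. The epithelial transcription factor ELF3 was higher by 1.53 ± 0.19, and the splicing regulator ESRP2 by 0.80 ± 0.071, while its relative ESRP1 was lower, at -0.55 ± 0.084. The desmosomal protein PKP2, the tight junction protein CLDN1 and the transcription factor OVOL1 were lower, at -1.23 ± 0.088, -1.05 ± 0.059 and -1.16 ± 0.19. Another probe of CLDN1 gave -0.21. OVOL1 was above background on 3 PC9M2 arrays, and its other probes ran up to 0.14.

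Several keratins and other genes of squamous differentiation were lower. Of 16 keratins tested, 6 were higher and 10 (62.5%) lower (median -0.38). The median was -0.12 under scaling to the 75th percentile, and with scan day as a random block 5 were higher and 7 lower. These counts include keratins that were saturated on the PC9 arrays, as named below. KRT14, a keratin of basal cells, gave 7.81, 8.98 and 9.69 in PC9 and 4.34, 6.74 and 7.48 in PC9M2, lower, at -2.11 ± 0.14 (adjusted p = 1.41e-13) and without overlap on the probe used, and at -0.81 on another. KRT6B and KRT6A, keratins of activated and squamous epithelium, were lower, at -1.89 ± 0.13 and -1.78 ± 0.15, while KRT13 (0.68 ± 0.11) and KRT15 (0.83 ± 0.074) were higher. KRT6A and KRT6B are near-identical copies, and 5 PC9 arrays were saturated for KRT6B. KRT5, KRT18 and KRT19 were saturated on all 26 PC9 arrays, so that no fold is given for these keratins. The direction of KRT18 and of KRT8 (-1.33 ± 0.17 on the probe used, 0.22 on another) depended on the scaling or the probe. TP63, the master regulator of basal cells, was lower, at -1.95 ± 0.19 on the probe used and stood at 0.015 on another.

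On chromosome 1, the run of neighbouring genes from LCE2A to S100A3, which holds the cornified envelope genes, had a median difference of -0.91. Of its 15 tested cornified envelope genes, 9 were lower and 2 higher. The run was found by scanning the chromosomes for low medians. These counts and those of its S100 genes below therefore follow in part from how it was picked. SPRR1B, an envelope precursor protein, was lower, at -2.30 ± 0.18. The antibacterial protein PGLYRP4 was lower, at -2.95 ± 0.14 on the probe used, with 1 of 26 PC9M2 arrays above background, and stood at -0.90 on the other probe and at -0.33 under normexp. Of the 8 S100 genes of that region tested, 6 were lower (4 with scan day as a random block), among them S100A8 (-2.15 ± 0.12, with 17 PC9 arrays saturated) and S100A9 (-1.23 ± 0.13), which form calprotectin. S100A6, the calcium-binding protein calcyclin, gave 14.99, 15.65 and 15.95 in PC9 and 16.84, 17.00 and 17.31 in PC9M2, but was saturated on all 26 PC9 arrays, so that no difference is given for it. Under normexp the medians of both groups were nearer 0, at -0.34 and -0.13.

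Lung lineage genes gave 10 higher and 7 lower of 23 tested, with a median of -0.09, and 6 and 5 with scan day as a random block. FOXA1, a pioneer factor of endodermal epithelium, gave 9.03, 10.47 and 10.93 in PC9 and 11.03, 11.84 and 12.98 in PC9M2. GATA6, another endodermal factor, gave 7.19, 8.09 and 8.89 and 8.95, 9.38 and 10.22. Neither gene's ranges overlapped, and they were higher by 1.48 ± 0.09 (adjusted p = 1.21e-14) and 1.35 ± 0.086 (adjusted p = 3.5e-14). SOX9, a factor of distal lung progenitors, was higher by 0.74 ± 0.14, and SOX2 (-0.15) was not called. CEBPA was lower, at -1.67 ± 0.37 on the probe used, while its other 2 probes gave 1.26 and 0.89. Among alveolar products, the protease NAPSA was higher by 0.56 ± 0.072 and the surfactant protein SFTPD was lower, at -1.19 ± 0.10. The list of lung adenocarcinoma markers used above had 2 higher and 4 lower genes of 9 tested.

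Of the markers of other cell types, 14 were tested, 1 was higher and 5 were lower. The higher one was LYZ, lysozyme, which airway epithelium also secretes (2.76 ± 0.19, above background on 3 PC9 and 25 PC9M2 arrays). PECAM1, an adhesion molecule of endothelial cells, gave 9.22, 10.02 and 10.61 in PC9 and 7.68, 8.43 and 8.71 in PC9M2, a difference of -1.51 ± 0.092, and VWF was lower, at -1.02 ± 0.076 on the probe used (0.13 on another). FCGR3A, an Fc receptor of leukocytes, was also lower (adjusted p = 2.37e-09), but was above background on 14 PC9 arrays and 1 PC9M2 array.

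Genes of mitosis were more often lower than higher, most of them by small amounts, whereas the share of lower S-phase genes was near the background. Of 38 S-phase genes, 8 were higher and 16 (42.1%) lower (median -0.18, and 0.019 in the last 13 time points). Of 35 mitotic genes, 4 were higher and 24 (68.6%) lower, with a median of -0.36. With scan day as a random block, 15 mitotic genes were lower and 1 higher. MKI67, the proliferation antigen Ki-67, gave 7.39, 7.63 and 8.60 in PC9 and 6.51, 7.26 and 8.50 in PC9M2, a difference of -0.42 ± 0.094 (adjusted p = 0.000305), and CDK1 (-0.0082) and PCNA (-0.14) were not called. RRM2, a subunit of the reductase that makes deoxynucleotides, was lower, at -1.05 ± 0.20, the cyclin CCNE2 at -1.05 ± 0.26, the replication factor GINS4 at -1.01 ± 0.25 and the mitotic kinesin KIF20A at -0.90 ± 0.12. BIRC5, survivin, which acts in mitosis and survival, was an exception and was higher by 0.95 ± 0.066. Some of the largest values of these lists rested on single probes. ECT2 (-2.03 ± 0.21) and CENPF (-1.21 ± 0.19) were lower on the probe used, while other probes gave 0.50 and 0.12.

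Cyclins of G1, inhibitors of cyclin-dependent kinases and other regulators of this stage gave 6 higher and 13 lower genes of 26, with a median of -0.33. CDKN1A, the inhibitor p21, gave 7.03, 8.16 and 9.51 in PC9 and 5.01, 6.77 and 7.60 in PC9M2 and was lower, at -1.43 ± 0.18 (adjusted p = 3.24e-08). Also lower were ZMAT3, an RNA-binding zinc finger protein (-1.54 ± 0.24), SESN2, a stress-induced sestrin (-1.36 ± 0.094), and the ubiquitin ligase MDM2 (-1.05 ± 0.20). MDM2 was above background on 2 of 26 PC9M2 arrays. CDKN1C, the imprinted inhibitor p57, gave 5.94, 6.53 and 7.17 in PC9 and 7.54, 8.61 and 9.36 in PC9M2, higher by 2.02 ± 0.15 (adjusted p = 1.36e-12) and without overlap. The kinase CDK4 was lower, at -1.10 ± 0.12 and CDK6 higher by 0.86 ± 0.15 on the probe used and 0.021 on another.

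On chromosome 6, 2 runs of neighbouring genes hold clusters of replication-dependent histone genes, most of which were lower in PC9M2. Of 36 histone genes tested in these runs, 31 were lower, 22 of them at least 2-fold, 0 were higher, and the median was -1.20 (-0.77 under normexp). The ranges of 14 did not overlap. H1-2, a linker histone, gave 13.59, 14.26 and 14.77 in PC9 and 11.83, 12.58 and 12.87 in PC9M2, a difference of -1.82 ± 0.091 (adjusted p = 1.27e-16). The core histone gene H2AC7 gave 12.95, 13.35 and 13.62 and 10.62, 11.71 and 12.39, a difference of -1.63 ± 0.10, and H2BC12 was lower, at -1.19 ± 0.07. The 5 genes that were not called were H3C1 (0.33), H3C3 (0.28), H3C8 (-0.039), H4C2 (-0.47) and H4C5 (0.53). The histone genes are near-identical copies whose probes may share transcripts. Both runs were found by scanning the chromosomes for low medians, rather than from a list, and histone genes outside them were not counted. The counts of the histone genes, and those of the butyrophilin genes that follow, therefore result in part from how the runs were picked. All 5 butyrophilin genes tested between the clusters, which encode membrane proteins of the immunoglobulin family, were lower as well, with differences from -1.20 to -0.51. With scan day as a random block 4 were lower, and their median of -1.09 was -0.30 under normexp.

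YAP and TAZ act with TEAD factors on genes that respond to cell shape and matrix, and most of those tested were lower. Of 21, 12 (57.1%) were lower and 4 higher (AXL, DLC1, F3 and NT5E), with a median of -0.91 (-0.39 under normexp). CCN1, a matrix-associated signaling protein, gave 12.84, 13.18 and 14.50 in PC9 and 10.72, 11.66 and 12.37 in PC9M2, without overlap and lower, at -1.79 ± 0.11 (adjusted p = 9.65e-15). CCN2, connective tissue growth factor, was lower, at -1.90 ± 0.15, the kinase NUAK2 at -1.77 ± 0.12 and the Hippo pathway scaffold WWC1 at -1.37 ± 0.10. DLC1, a GTPase-activating protein, was higher by 2.36 ± 0.14 on a probe above background on 4 PC9 and 17 PC9M2 arrays, while another gave -0.28.

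Genes of the TGF-β and BMP pathways were balanced, with 12 higher and 12 lower of 33 and a median of 0.057. ID1, a BMP target that blocks differentiation factors, gave 9.92, 10.68 and 11.87 in PC9 and 12.75, 13.26 and 14.19 in PC9M2. It was higher by 2.62 ± 0.089 (adjusted p = 1.22e-20) without overlap, whereas the related ID3 was lower, at -0.96 ± 0.11. The ligands TGFB1 and INHBA were higher by 1.32 ± 0.13 and 1.04 ± 0.13, TGFB2 was lower, at -1.18 ± 0.17, the co-receptor TGFBR3 was lower, at -1.84 ± 0.14, and LTBP2, a matrix protein that binds latent TGF-β relatives, was higher by 1.48 ± 0.13 (0.57 on another probe). BMP7 was above background on 12 PC9 arrays and 0 PC9M2 arrays, which made it at least 3.89-fold lower on the probe used (another gave 0.016).

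Of 33 matrix proteases and integrins, 9 were higher and 12 lower (median -0.14). MMP11, stromelysin 3, was higher by 2.66 ± 0.23, above background on 9 PC9 arrays and all 26 PC9M2 arrays, and the protease PLAU by 0.97 ± 0.10. MMP7, matrilysin, was lower, at -1.78 ± 0.14. The integrin chains ITGA2, a collagen receptor, and ITGAV, a vitronectin receptor, were lower, at -2.59 ± 0.25 and -2.20 ± 0.26 on the probes used, but the brightest probes gave -0.51 and -0.41, and the probe used for ITGAV was above background on 7 of 26 PC9M2 arrays. The laminin receptor chain ITGA6 was higher by 1.28 ± 0.082, and the common chain ITGB1 (-0.30) was not called.

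Metabolic and stress genes were mostly lower by moderate amounts. Of 34 genes of glycolysis and of the hypoxia response, 21 (61.8%) were lower and 7 higher, with a median of -0.37. SLC2A3, a glucose transporter, gave 7.36, 8.39 and 10.14 in PC9 and 3.76, 6.50 and 8.46 in PC9M2 and was lower, at -2.32 ± 0.30 (adjusted p = 7.18e-08). The glycolytic enzyme ALDOA was lower, at -1.46 ± 0.32 and LDHA at -0.57 ± 0.16, and GAPDH (0.082) was not called. The carbonic anhydrases CA12 and CA9 were lower, at -1.95 ± 0.13 and -1.55 ± 0.26, with 4 and 21 of 26 PC9M2 arrays above background and -0.30 on another probe of CA12, while BNIP3, a mitophagy receptor, was higher by 1.10 ± 0.11. Of 34 stress response genes, 20 (58.8%) were lower and 3 higher (median -0.48). PSAT1, an enzyme of serine synthesis, gave 13.66, 14.34 and 16.15 in PC9 and 11.37, 13.06 and 14.57 in PC9M2 and was lower, at -1.59 ± 0.14 (adjusted p = 2.25e-11). The co-chaperone BAG3 was lower, at -1.19 ± 0.12, the lipoprotein receptor VLDLR at -0.88 ± 0.084 and the metallothionein MT2A, which binds metal ions, at -0.64 ± 0.19. Metallothioneins are near-identical copies.

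GPX2 was the one NRF2 target that was at least 2-fold higher. Of 27 NRF2 and aldo-keto reductase genes, 7 were higher and 13 lower, with a median of -0.35 that became 0.12 under scaling to the 75th percentile. NQO1, a standard NRF2 target, gave 9.83, 10.30 and 11.18 in PC9 and 9.93, 10.41 and 11.15 in PC9M2 and was not called (0.11), and the glutathione synthesis genes GCLC (0.78 ± 0.12) and GCLM (-0.78 ± 0.081) went in opposite directions. HMOX1, heme oxygenase, was lower, at -0.79 ± 0.10, and ALDH1A1, an aldehyde dehydrogenase used as a stem cell marker, at -2.08 ± 0.24 with 6 of 26 PC9M2 arrays above background. Among 33 drug transporters and metabolic enzymes, 10 were higher and 16 lower (median -0.25). Next to SLCO1B3, its relative SLCO1B1 (1.77 ± 0.14, 1 of 26 PC9 arrays) and the cytochrome CYP2S1 (2.46 ± 0.12, 9 of 26) were higher. SLCO1B1 and SLCO1B3 are similar genes that lie side by side. DPYD, which degrades pyrimidines and fluorouracil, was lower, at -2.68 ± 0.22. The efflux pump ABCG2, which is known to bind gefitinib, was lower, at -0.85 ± 0.085, and ABCC1 (-0.014) was not called. GSTP1, a glutathione transferase, gave 15.43, 16.00 and 16.23 in PC9 and 16.50, 16.85 and 17.24 in PC9M2, and since it was saturated on all 26 PC9 arrays, no difference is given.

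Sterol and fatty acid synthesis genes gave 8 higher and 12 lower of 29 (median -0.16), and 4 and 7 with scan day as a random block. The fatty acid desaturase FADS1 was higher by 1.01 ± 0.12 on the probe used and stood at 0.19 on another, the elongase ELOVL6 was higher by 0.96 ± 0.073, and the sterol desaturase SC5D was lower, at -1.18 ± 0.13. FDPS was saturated on 25 of 26 PC9 arrays, and its difference of -1.36 turned to 0.45 under scaling to the 75th percentile.

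**Figure D3:**
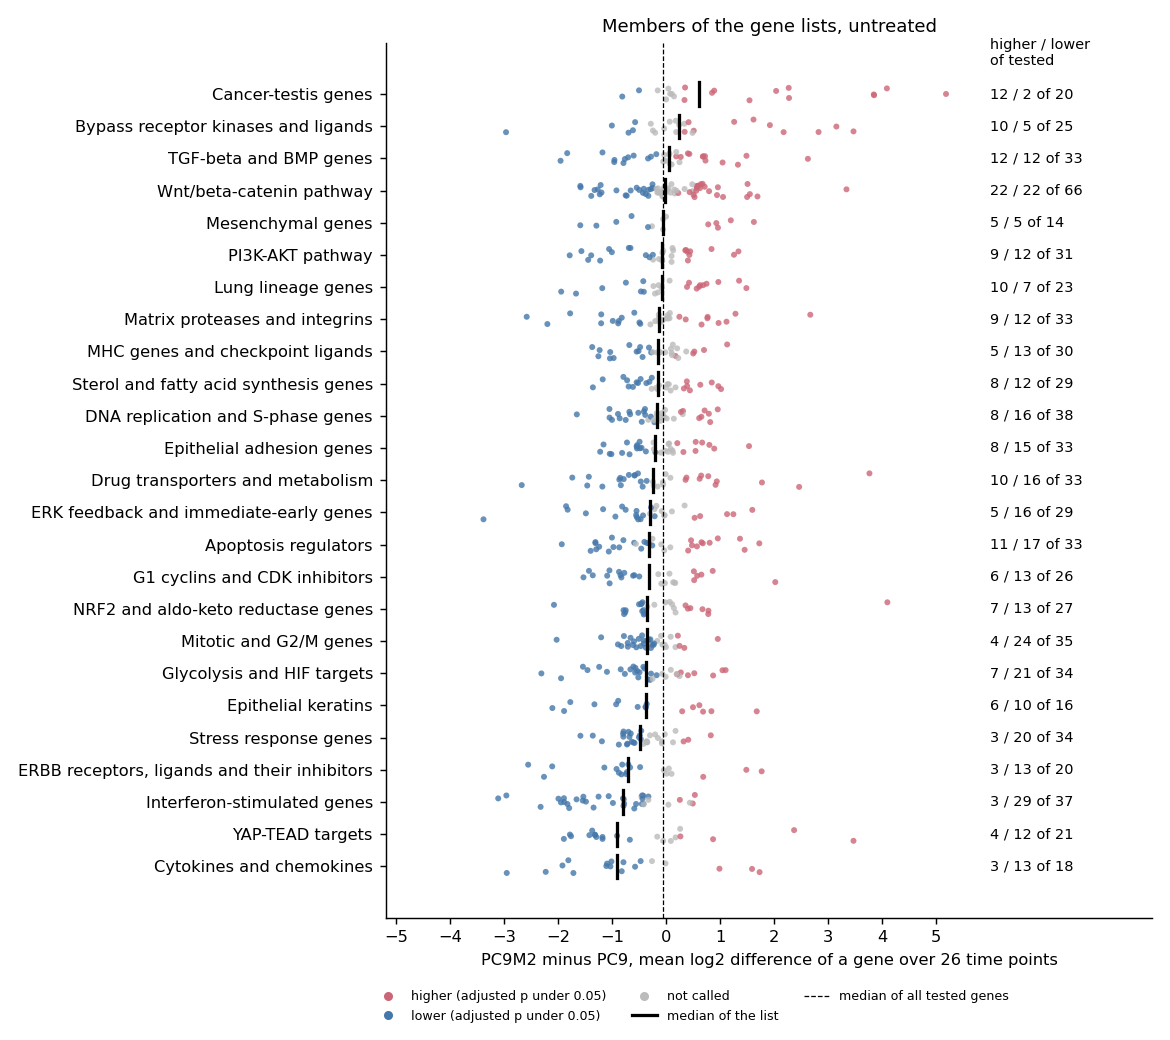
Mean log2 difference of PC9M2 minus PC9 over 26 time points (x axis) for each tested member of the gene lists (rows, ordered by list median), 1 point per gene, coloured by whether it was higher, lower or not called at an adjusted p of 0.05. Black bars are list medians, the dashed line is the median of all tested genes, and the counts of higher and lower members stand at the right, with 29 of 37 interferon-stimulated genes lower and 12 of 20 cancer-testis genes higher.

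Along the chromosomes, the differences were not spread evenly. Chromosome 12 had the lowest median, -0.36, with 17.0% of its tested genes higher and 54.8% lower, and chromosome 22 was close to it (-0.36). The highest median was that of chromosome 14, 0.19, with 44.8% higher and 23.0% lower. Over 12703 runs of 25 neighbouring tested genes, the run medians had a median of -0.075 and those of the middle 95% of the runs lay between -0.61 and 0.46. The lowest runs were the 2 with the histone clusters on chromosome 6 (-1.21 and -0.94) and that of the cornified envelope genes on chromosome 1, followed by 2 runs on chromosome 12 (EMG1 to GABARAPL1 and SMUG1 to RAB5B, both -0.88). The first of these holds SLC2A3, and the second holds ITGA5 (-0.89 ± 0.11) and CDK2 (-0.88 ± 0.24). The highest run lay on chromosome 2 from DYNC1I2 to IFT70A, with 22 of 25 genes higher, 1 lower and a median of 0.94. It holds ITGA6 (1.28) and PDK1, a kinase that closes the entry to the citric acid cycle (0.87 ± 0.12), and its lower gene is NFE2L2, which encodes NRF2 (-0.47 ± 0.14). On chromosome 14, the run from WDHD1 to PCNX4 had 20 genes higher and 1 lower (median 0.86). On the X chromosome, the run from GEMIN8 to RPS6KA3 had 19 higher and 1 lower (0.80). The copy number of these regions was not measured.

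**Figure D4:**
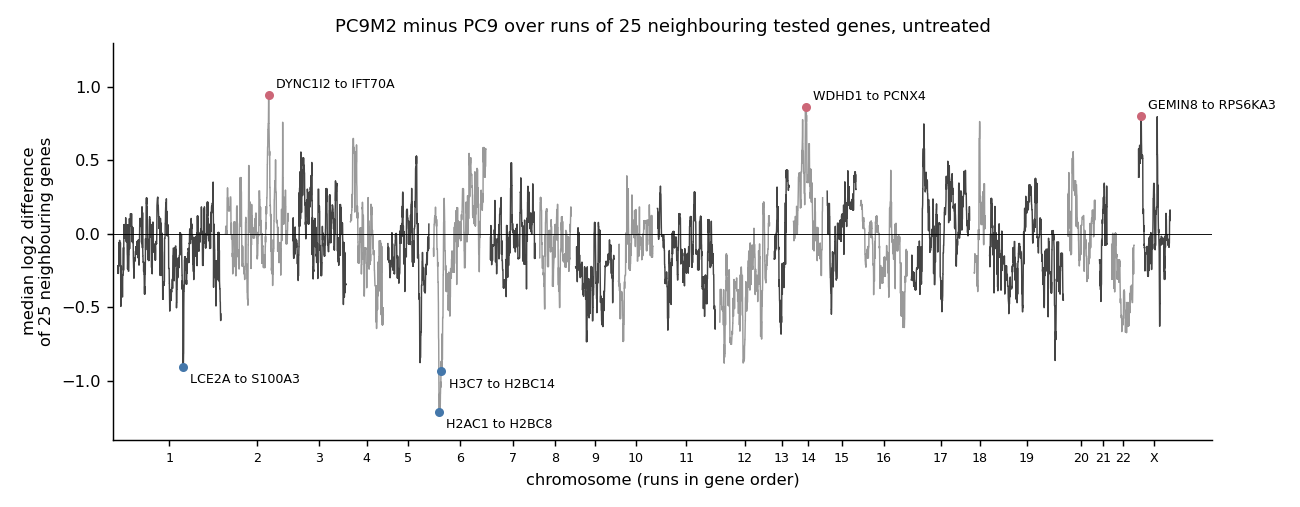
Median difference between PC9M2 and PC9 over runs of 25 neighbouring tested genes in gene order on each chromosome (log2), chromosome Y left out. Of the runs, 95% lie between -0.61 and 0.46, the lowest are on chromosomes 6, 1 and 12 and the highest on chromosomes 2, 14 and X.

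A linear change of the line difference over the 24 h was called for a minority of genes. The slope in time was positive for 1874 genes (14.1%) and negative for 1515 (11.4%) at an adjusted p under 0.05. An F-test of a spline of time, which also takes up curved changes, called 3992 and 3582 genes with such slopes. In both lines the later time points were scanned on earlier days (Spearman's rho of time and scan day -0.992 and -0.99, over 26 arrays each), so that time and scan order cannot be told apart. The counts of linear slopes dropped to 533 and 390 with scan day as a random block. CIB3 was the clearest case of a gap that narrowed, though its difference still ran from -2.57 to -0.65 from 17 to 24 h. In PC9M2 its level was 6.54 at 0 h and 11.27 at 24 h, while in PC9 it was 10.72 and 11.91. The slope was 0.17 ± 0.016 per h (adjusted p = 4.65e-08), and the EGF-treated PC9M2 arrays went from 6.72 to 11.31. RAB3C, a vesicle GTPase, had the largest positive slope by the rule used, 0.19 ± 0.023 per h (adjusted p = 2.48e-06), followed by DHH, a Hedgehog ligand (0.17), AGMO, an ether lipid enzyme (0.17), and DDX50, an RNA helicase (0.17). In the other direction, CD86, a T cell costimulatory ligand, had -0.24 ± 0.046 per h (adjusted p = 0.000577). The others were the matrix protein TNXB (-0.18), ESPNL (-0.17), the cytokine IL27 (-0.16) and RAVER1, an RNA-binding protein (-0.16). For most of these genes the arrays ranged widely within a line, IL27 from 7.50 to 16.06 in PC9M2. Other probes of some of them differed. Over the whole course DDX50 stood at -0.50 on the probe used and at 0.51 on a brighter one. From 17 to 24 h TNXB stood at -2.61 on the probe used and from -0.69 to -0.010 on the others. At those hours CD86 stood at -2.67 on the probe used and at -0.047 on the other, which was dim.

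**Figure D5:**
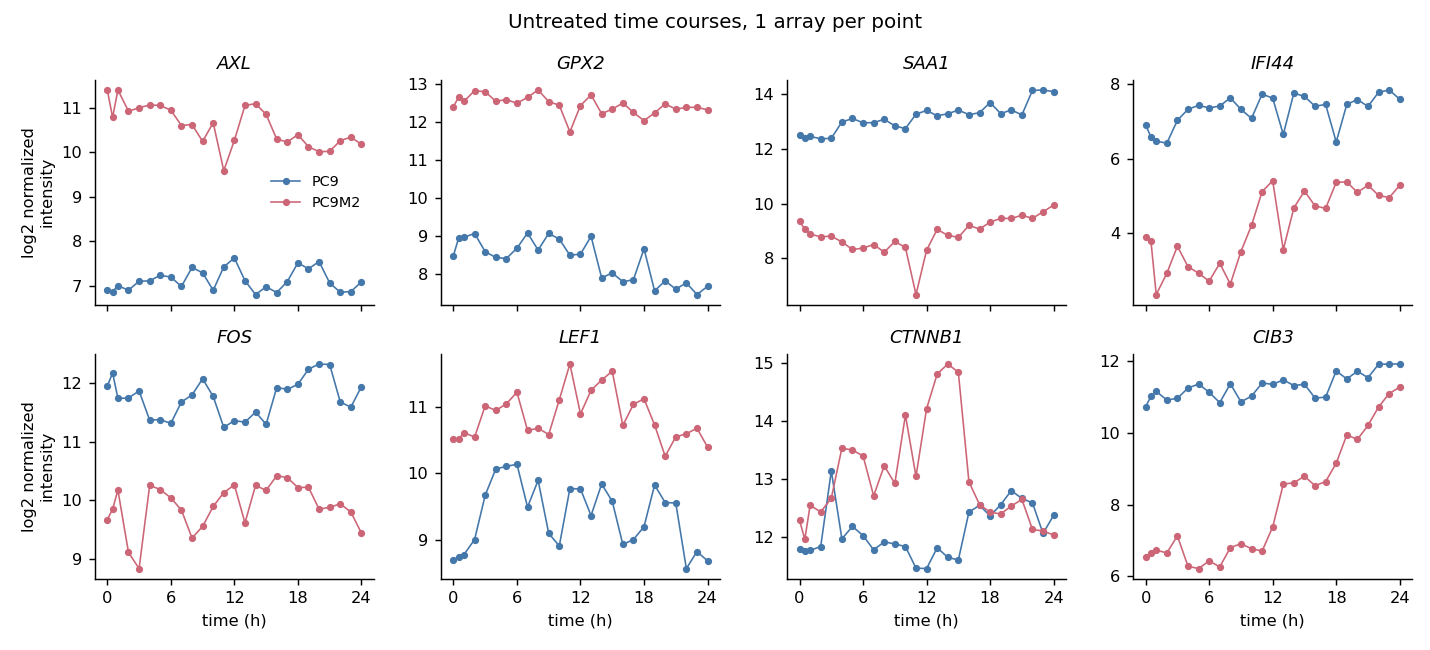
Log2 intensity of 8 genes at the 26 time points (hours) in untreated PC9 and untreated PC9M2, 1 array per point. AXL, GPX2, SAA1, IFI44, FOS and LEF1 keep the lines apart at all 26 time points, CTNNB1 is raised in PC9M2 from 10 to 15 h, and CIB3 in PC9M2 goes from 6.54 at 0 h to 11.27 at 24 h.

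Some of the calls named above did not hold when the time points were taken as less independent. Besides PUDP, the calls of AXIN1, MAGEA4, DUSP6, ESRP1, NFE2L2, IFIT5, PARP9 and NT5E were lost with scan day as a random block (adjusted p from 0.0573 for NFE2L2 to 0.239 for AXIN1 and NT5E). With time points 3 h apart, which leaves 9 pairs, those of IRF9, IFITM2, NRG4, EGR2, MKI67, CCNE2, LDHA, MT2A and CDK2 were lost as well (adjusted p from 0.0543 for EGR2 to 0.22 for MT2A).

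The 26 PC9 and 26 PC9M2 arrays treated with 100 ng/ml EGF gave a second comparison of the same lines on other arrays, which were normalized and filtered together with the untreated ones. There, 4254 genes (32.1%) were higher and 5006 (37.7%) lower in PC9M2. Of the 4022 genes higher without treatment, 3792 (94.3%) were higher again, and of the 5014 lower genes, 4646 (92.7%) were lower again, while 0 were called in the opposite direction. Among the genes at least 2-fold apart, this held for 951 of 953 and 1274 of 1276. The differences there were 3.54 for AXL, 4.02 for GPX2, -4.12 for SAA1 and -2.93 for IFI44. They were -2.89 for BST2, 1.57 for ERBB2, 1.42 for LEF1 and -1.38 for GSK3B. All 32 interferon-stimulated genes called without treatment were called again with the same sign. The EGF arrays lie on the same slides as the untreated ones and share their scan days, so they repeat the comparison in other cultures but not on other slides.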

How the data were processed

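Each array was an Agilent 44K whole human genome design in 1 colour (Cy3). The authors deposited the spot intensities of each array as Feature Extraction wrote them, that is, background-subtracted and detrended but not yet normalized. Per the file headers, the software was a later version than the methods name. Other columns hold its 0 or 1 marks for saturated, outlying and well-above-background spots. A further table that the authors deposited equals these intensities after quantile normalization of the whole series (100% of values within 0.1 on the log2 scale) and served as an alternative.

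Here, all arrays of the series were quantile normalized together from the deposited intensities (45015 features each), with a floor of 1, and put on the log2 scale. Spots marked as outliers were removed (0.299% of the untreated values), so that a few genes have 24 or 25 differences. Replicate spots were averaged. RefSeq accessions gave a symbol to 24794 of 41000 probes and the other 16206 were left out. For the 6040 of 16961 genes with several probes, the most variable probe stood for the gene, as in the methods. The variance was taken over all arrays of both lines, so the rule favours probes with a large difference between the lines. Genes were tested if, in any of the 8 time courses, 13 or more of the 26 arrays had that probe marked as well above background, which kept 13261. Arrays carry no read depth, and their number limits the precision.

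The paired differences were fitted with limma 3.58.1 in R 4.3.3 (lmFit and eBayes, two-sided, Benjamini-Hochberg adjustment over all tested genes at 0.05), with time in hours as a covariate for slopes. The fit was tested on simulated data. Tables were made with Python 3.11.15, pandas 2.3.3 and numpy 2.4.6, and promoter windows come from RefSeq (GRCh38.p14), whose annotation also gave chromosomes and the order of genes. The array design is annotated on an older assembly, so no coordinates of probes are given. XIST and genes of chromosome Y were left out. Values of a few further genes are not reported here.

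The genes named are the 12 largest positive and negative differences with the same sign at every time point and signal on at least 13 arrays of both lines, genes bright in 1 line alone, the 4 members with the largest absolute difference of each of 28 lists and members needed to describe a list, the genes the study names, and the 5 largest slopes in each direction. The genes of the chromosome runs and a few other members were named after their values were seen. The comparison, the lists and this rule were chosen with earlier results of these data known. The 23 alternatives covered scaling, background correction, probe choice, filters, floor, saturated and outlying spots, pairing, independence of time points, scan day, the methods' t-test and parts of the time course.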

Additional observations from a re-analysis of the deposited data

How the results depend on the processing

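The counts of higher and lower genes stayed within 1.5 times of 4022 and 5014 under the alternatives, except with time points 3 h apart, where 9 pairs gave 3183 lower genes. With scan day as a random block they were 2967 and 3718, and with the variance inflated for autocorrelation 3159 and 3926. The counts at 2-fold dropped to 318 and 314 under normexp background correction and to 541 and 685 when all 52 arrays had to be well above background, which tests fewer genes. The normexp setting adds an offset of 50, which by construction draws the differences of dim probes toward 0. At 2-fold, the probe with the highest mean gave 873 higher and 960 lower genes, and the mean of all probes gave 742 and 912. Changes over time were the least stable. Against 1874 and 1515, they were 1 and 1 with time points 3 h apart, 688 and 538 with the inflated variance, 533 and 390 with scan day as a random block, and 3992 and 3582 by the F-test of a spline, which also takes up curved changes. Arrays of the same time point deviated together only in part (correlations from -0.280 to 0.485, over 0.1 for 19 of 26 pairs), and without the time point as replicate block the unpaired courses gave 3911 and 4923 genes. Leaving out the 11 h pair, which was chosen after seeing the data, gave 4168 and 5086. Of 148 named genes, 114 kept their outcome under every alternative and 12 were counted as changing sign under 1 of them. The count leaves out other changes of sign. On their brightest probes MET, which was not called, went from -0.25 to 0.51 and DDX50 from -0.50 to 0.51, and BBC3 turned as described above. The 12 counted were KRT18 (1.42) and FDPS (0.45) under scaling to the 75th percentile. With the probe of the highest mean they were BCL2L11 (0.13), OVOL1 (0.14), CD47 (-0.12), ECT2 (0.50), CENPF (0.12) and KRT8 (0.22), and with the mean of all probes NKD2 (0.82) and CEBPA (0.16). AGMO turned to 0.45 in the last 13 time points and CD86 to 0.75 in the first 13. The cause was not tested beyond the choice of probe or scaling itself. Saturation limits the brightest genes, 93 of which were saturated on all 26 PC9 arrays.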
